A study of Homo sapiens with 8 samples.

Results

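Replication-dependent histone genes were followed in ribosome profiling data, in which the count of a gene reports the ribosome-protected mRNA fragments (footprints) on it. Members were the genes whose current symbol belongs to the H1-1 to H1-6, H2AC, H2BC, H3C or H4C series, with pseudogenes left out. This gave 41 of the 17179 gene symbols in the count tables, with 6 genes for linker histone H1, 13 for H2A, 10 for H2B, 6 for H3 and 6 for H4. All 41 matched a RefSeq gene of GRCh38, 31 on chromosome 6 between positions 25726063 and 27893185 and 10 on chromosome 1 between 149813225 and 149887965.

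All libraries were made from 293T, an embryonic kidney cell line of human origin with the SV40 large T antigen, and form 4 groups of 2. Cells with the hairpin shNBD1, which the labels call non-cleaving, were compared with a control for shRNA. The inhibitor arm compared cells given miRNA inhibitors with a control for inhibitors. All groups were grown in high-glucose DMEM with serum and lysed with cycloheximide, which holds ribosomes on mRNA; the labels spell out neither NBD1, nor the inhibited miRNAs, nor a dose or time, and the design text names the translation status under both treatments as the question.

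Core histones H2A, H2B, H3 and H4 form the nucleosome, and H1 binds the DNA between nucleosomes. Their genes lie in clusters of short, mostly intronless copies that are transcribed when DNA is replicated. Most of these mRNAs end in a conserved stem-loop instead of a poly(A) tail, and the stem-loop binding protein SLBP serves their processing, translation and decay. In bulk cells, fewer cells in S phase and fewer footprints per cell cannot be told apart. Without matched RNA libraries, a change in footprints can come from mRNA level, from translation or from both.

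Promoters are shown for 5 members on which the comparisons below turn. H4C2 and H1-5 fell and H2AC8 rose with shNBD1, H1-3 had the smallest p with the inhibitors, and H1-3 and H2BC12 differed between the 2 control groups. Each line gives the 150 bases before the annotated start, 5′ to 3′ on the gene's strand, from RefSeq GRCh38.p14. Capitals mark matches to the motifs named after the sequences, in either orientation, and no marked match overlaps another.
H4C2 (chr6:26027284-26027433, minus strand): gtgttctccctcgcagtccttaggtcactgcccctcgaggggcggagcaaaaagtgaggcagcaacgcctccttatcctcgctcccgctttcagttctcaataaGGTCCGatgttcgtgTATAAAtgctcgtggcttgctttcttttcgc
H1-5 (chr6:27867589-27867738, minus strand): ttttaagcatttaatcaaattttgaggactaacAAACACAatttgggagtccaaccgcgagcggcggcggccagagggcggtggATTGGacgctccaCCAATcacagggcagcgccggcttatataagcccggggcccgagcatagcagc
H1-3 (chr6:26234988-26235137, minus strand): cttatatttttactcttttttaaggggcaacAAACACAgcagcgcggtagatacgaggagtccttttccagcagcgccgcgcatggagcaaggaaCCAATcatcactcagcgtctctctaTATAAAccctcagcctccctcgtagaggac
H2AC8 (chr6:26216771-26216920, plus strand): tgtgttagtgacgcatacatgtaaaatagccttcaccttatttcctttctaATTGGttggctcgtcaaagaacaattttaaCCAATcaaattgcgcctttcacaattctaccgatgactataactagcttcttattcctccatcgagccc
H2BC12 (chr6:27146859-27147008, minus strand): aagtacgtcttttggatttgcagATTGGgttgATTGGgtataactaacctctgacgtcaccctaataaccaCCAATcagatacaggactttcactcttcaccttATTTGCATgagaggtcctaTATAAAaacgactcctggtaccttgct
The H4C2 window holds GGTCCG, part of the element bound by HINFP, an activator of H4 genes, and a TATA box (TATAAA). The HINFP motif was found in 5 of 5 H4 promoters in the table, 46 or 47 bases before the start, and in 11.3% of all 35116 promoters. Both H1 windows hold AAACACA, the H1 box, which was present in 6 of 6 H1 promoters and in 5.64% of all promoters. In H1-1 the match lay outside the 150 bases before the start, and in the other H1 genes it lay 105 to 119 bases before the start. The H2BC12 window holds the octamer ATTTGCAT, bound by OCT1 (POU2F1), which lay in 7 of 10 H2B and 9 of 12 H2A promoters and in 1.77% of all. CCAAT lay in 34 of 38 member promoters and TATAAA in 27 of 38, against 34.6% and 11.5% of all promoters. These counts cover both strands and the 300-base table window, 250 bases before to 50 after the start; 38 of the 41 members matched an entry.

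Total counts ran from 11218980 to 19854218 per library. The histone genes took 3.01% of them in inhibitor control replicate 1 (95% Clopper-Pearson interval 3.003% to 3.018%) and 3.54% in inhibitor replicate 1 (3.533% to 3.551%), the lowest and highest of the 8 libraries; intervals cover counting error only. The labels do not say whether replicates were separate cultures, and the p-values then reflect library-to-library spread that may be technical. Markers of 293T cells were listed, except NEFL, but their levels were uneven. Over the 8 libraries the means were 4026 CPM for VIM and 1340 CPM for KRT8, the 2 highest, and only 2.67 CPM for PAX2 and 1.21 CPM for NEFM. VIM alone had a mean of 6036 CPM with shNBD1 against 3565 CPM in the shRNA control. The summed marker level was 8579 to 8919 CPM (the read count normalised to library size) with shNBD1 against 5466 to 5500 CPM in the shRNA control. It was 5351 to 5947 CPM with the inhibitors and 4896 to 5902 CPM in their control. Of 8 tested 293T markers 6 rose with shNBD1, where 9.18% of all genes were called higher, among them VIM (log2 fold change 0.76) and LIN28B (1.08). For markers of other cell types the sums were 559 to 562 CPM with shNBD1, 509 to 536 CPM in the shRNA control, 567 to 619 CPM with the inhibitors and 655 to 663 CPM in their control, and 5 of 12 were tested. The highest of these were ACTA2, EPCAM and COL1A1, with means over the 8 libraries of 396, 119 and 44.5 CPM. MYH6 and INS were not listed, and CD68 fell by 0.51 on the log2 scale with shNBD1. The part of these shifts in the histone values was not tested.

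By median, replicates of the inhibitor arm differed more from each other in the 10 histone genes of chromosome 1 than in the rest. Over those 10 genes, the median log2 ratio of replicate 2 to replicate 1 was 0.22 with the inhibitors and 0.48 in the inhibitor control, with 9 of 10 and 10 of 10 genes higher in replicate 2. In the shRNA arm their medians were smaller, at 0.12 with shNBD1 and 0.00 in the shRNA control, with 10 of 10 and 5 of 10 genes higher in replicate 2. On chromosome 6 the medians were -0.03 with the inhibitors and 0.15 in the inhibitor control. The difference did not follow chromosome alone. In the inhibitor control the ratios of H4C14 and H4C15 on chromosome 1 were 0.09 and 0.05, and those of H2AC13 and H3C4 on chromosome 6 were 0.54 and 0.53. H2AC20 had 429 and 563 CPM with the inhibitors and 287 and 444 CPM in the inhibitor control, in replicates 1 and 2. The sums and counts of calls with the inhibitors are also given without inhibitor control replicate 1 and inhibitor replicate 2.

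Footprints were spread over most of the 41 members, which are the copies listed in the count tables and may not be the whole family. Mean levels over the 8 libraries were above 100 CPM for 34 members and under 5 CPM for 4. The plot of members by library shows this range. The low ones were H2AC1 and H2BC1, known as testis histones, the testis linker histone H1-6, and H1-1, a linker histone of restricted tissues. H2AC1 was at 0 counts in inhibitor replicate 2, which allows up to 0.284 CPM, and between 0.204 and 0.409 CPM in the other libraries.

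**Figure D1:**
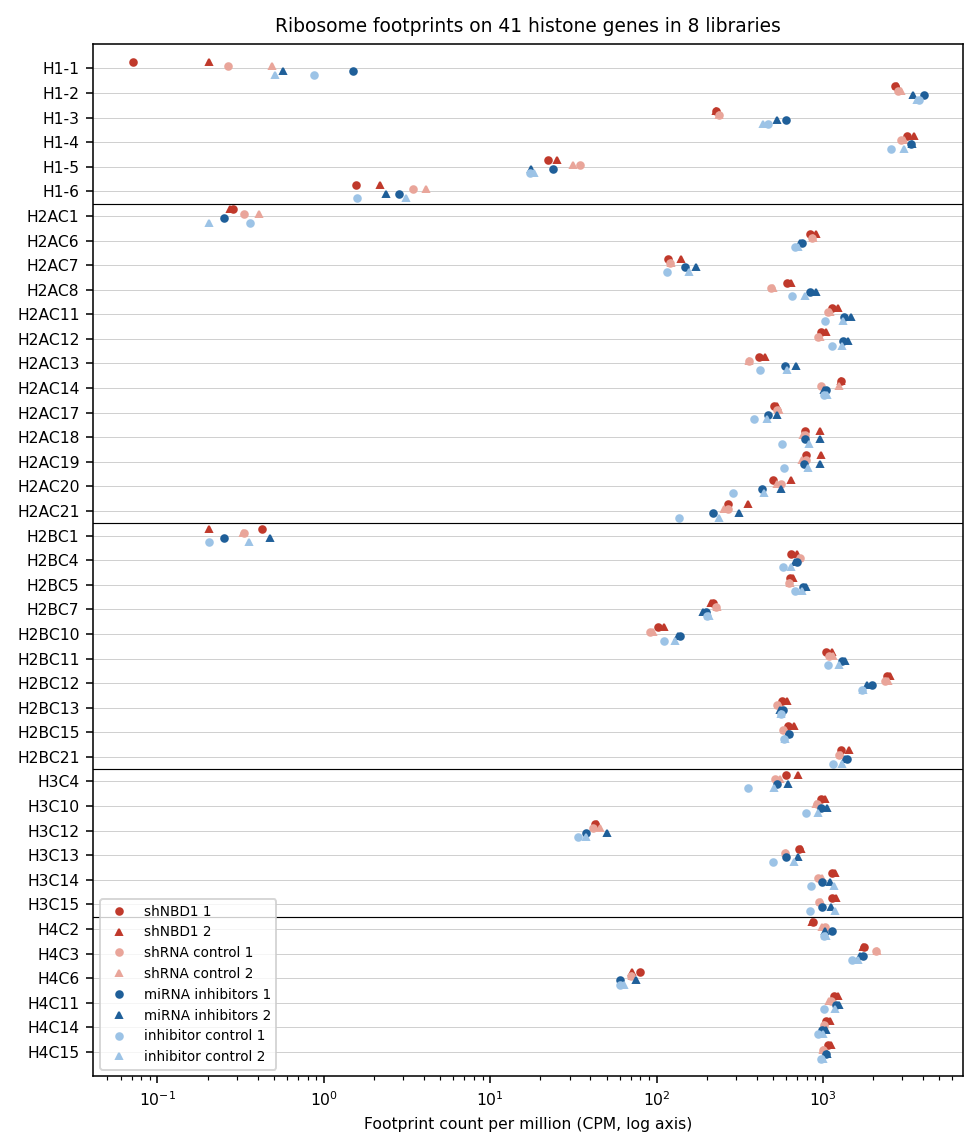
Footprint level (CPM, log axis) of the 41 histone genes in each of the 8 libraries, grouped by histone type, with circles for replicate 1 and triangles for replicate 2. Most members lie above 100 CPM, while H1-1, H1-6, H2AC1 and H2BC1 lie under 5 CPM; the inhibitor replicate 2 value of H2AC1 is 0 and is not drawn.

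Levels per kilobase used the RefSeq gene span and not the length of coding sequence. The order between histone types may therefore differ per coding length. They were compared for the 35 members with a span under 1000 bp. The mean footprint level per kilobase of span was highest for the linker gene H1-2 (4477 CPM per kb). H4C3 followed at 4391 and H1-4 at 3999 CPM per kb, and the ranges of these 3 over the libraries overlapped (3703 to 5510, 3680 to 5233 and 3265 to 4495). H4C11 (2966 CPM per kb) and H4C2 (2572) came next, and their ranges overlapped as well. Among the H2A genes H2AC12 (2486) and H2AC11 (2457) were nearly level, and H2BC11 led the H2B genes with such a span at 2445 CPM per kb. H3C15 and H3C14 led the H3 genes at 2017 and 1997 CPM per kb. Among linker genes, H1-3 (477) and H1-5 (30.0 CPM per kb) lay far below H1-2 and H1-4, with no overlap of their ranges.

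Several copies are so alike that reads could not be assigned with certainty. The chromosome 1 pair H3C14 and H3C15 split its reads almost evenly, with 49.6% to 50.3% on the first copy over the 8 libraries. The share was 49.3% to 50.3% for H2AC18 in the pair H2AC18 and H2AC19, and 48.9% to 50.5% for H4C14 in the pair H4C14 and H4C15, whose promoter windows are identical. The 95% Clopper-Pearson interval of the share held an even split in 8, 7 and 5 of 8 libraries, in that order of pairs. How reads that match several copies were counted is not given in the sources used here, so the values of these copies are uncertain as single genes. RefSeq spans of H2AC7 and H3C4 overlap on the same strand by 510 bp, and H4C15 overlaps H2AC19 (534 bp) and H3C15 (518 bp) on the opposite strand.

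Sums over each histone type do not depend on how reads were split among copies of that type. They would change if reads that match several copies were dropped or counted more than once. Reads in the overlap of H2AC7 and H3C4 could also fall to the H2A or to the H3 sum. For H3 genes the sum was 4597 and 4892 CPM with shNBD1 against 3935 and 4061 CPM in the shRNA control, a log2 ratio of means of 0.25. For H4 genes it was 5976 and 6114 CPM with shNBD1 against 6289 and 6285 CPM in the shRNA control (log2 ratio -0.06). The sums of these 2 core types thus lay on opposite sides of their control, without overlap of the libraries, though the H4 shift was small. Among all single genes, 34.7% lay above both controls and 34.3% below. Both ratios were smaller in size than the largest SD of the log2 sums within any group, 0.30 for H3 and 0.08 for H4. That SD came from the inhibitor control, which is outside this comparison. In CPM, the SD of the H3 sum was 209 with shNBD1 and 89.1 in the shRNA control. For H4 it was 97.8 and 3.24 CPM in the same order. The H4 genes did not move as 1, since 4 of 6 lay above both controls and 2, H4C2 and H4C3, below both. H2A genes summed to 8187 and 9142 CPM with shNBD1 against 7732 and 8005 CPM in the shRNA control (log2 ratio 0.14). Sums overlapped between shNBD1 and shRNA control for H1 (log2 ratio 0.06) and H2B (0.03), and the sum over all members gave 0.08.

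With the inhibitors, each type had a higher mean sum than in the inhibitor control, but for H2A and H3 this depended on the libraries used. H1 genes gave 8035 and 7478 CPM with the inhibitors against 6811 and 7186 CPM in the inhibitor control (log2 ratio 0.15). H2B genes gave 7666 and 7509 CPM against 6661 and 7156 CPM (0.14), and H4 genes 6163 and 6122 CPM against 5486 and 5918 CPM (0.11), in the same order of groups. These 3 types did not overlap between the groups. H2A (log2 ratio 0.23) and H3 (0.16) did overlap, with inhibitor control replicate 2 at 8717 and 4494 CPM above inhibitor replicate 1 at 8669 and 4093 CPM. The sum over all members gave 0.16, and 0.06 without inhibitor control replicate 1 or 0.26 without inhibitor control replicate 2. The H3 ratio was -0.045 without inhibitor control replicate 1. Without inhibitor control replicate 1 and inhibitor replicate 2 together, the ratios were 0.16 for H1, -0.01 for H2A, 0.10 for H2B, -0.14 for H3, 0.06 for H4 and 0.05 for all members. These sums are descriptions and were not tested.

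**Figure D2:**
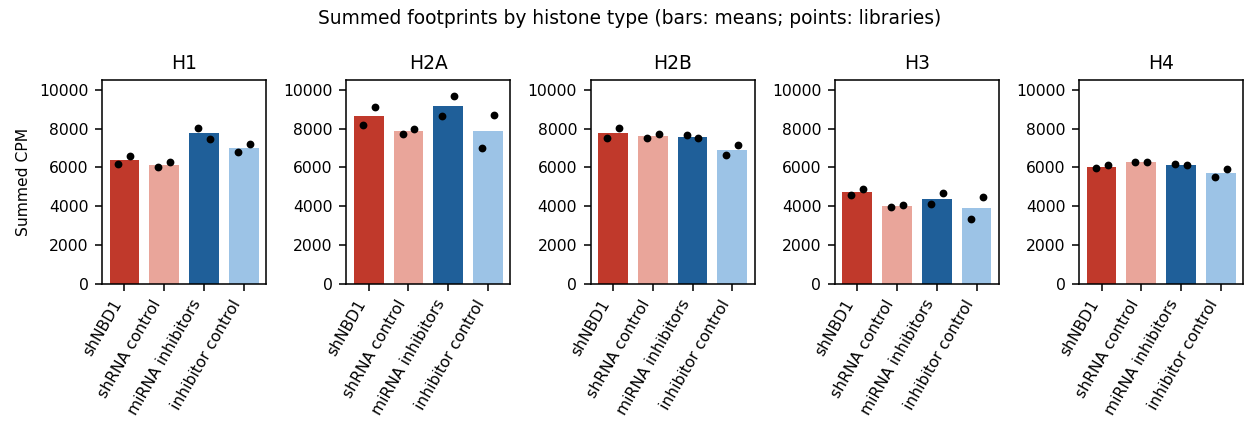
Summed footprint level (CPM) of the members of each histone type, with bars for group means from 0 and points for the 2 libraries of each group. H3 lies higher and H4 slightly lower with shNBD1 than in the shRNA control, and the inhibitor control libraries differ most from each other for H2A and H3.

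With shNBD1, 1 histone gene rose and 3 fell among 39 tested. In edgeR's quasi-likelihood test 9.18% of all genes were called higher and 9.15% lower at an adjusted p under 0.05. H2AC1 and H2BC1 were not tested because of low counts. H1-1 passed the low-count filter through the inhibitor arm, with 1 and 3 counts in the shNBD1 libraries, 4 and 6 in the shRNA control, 24 and 6 with the inhibitors and 17 and 10 in their control. The median log2 fold change of the tested members was 0.10, against 0.00 over all genes. Both shNBD1 libraries lay above both controls for 21 members and below both for 9, where 34.7% and 34.3% of all genes did so.

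The replication-dependent H4 genes encode the same core protein from several loci, and 2 of the 6 listed in the count tables fell. H4C3 (chr6:26103933-26104337), the most abundant of them per length, had 1753 and 1740 CPM with shNBD1 against 2075 and 2120 CPM in the shRNA control. Both shNBD1 libraries lay below both controls, with a log2 fold change of -0.26 ± 0.07 (SE) and an edgeR adjusted p of 0.0215. H4C2 (chr6:26026896-26027283) had 868 and 862 CPM with shNBD1 against 1025 and 991 CPM in the shRNA control, again without overlap (-0.22 ± 0.07, edgeR adjusted p = 0.0449). The remaining H4 genes did not pass. H4C11 had 1172 and 1225 CPM with shNBD1 against 1110 and 1094 CPM in the shRNA control (log2 fold change 0.12 ± 0.08), and H4C6, H4C14 and H4C15 ranged from 0.08 to 0.13.

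Of the 6 linker genes, 1 fell, where 9.15% of all genes did. H1-5 (chr6:27866792-27867588) had 22.4 and 25.3 CPM with shNBD1 against 34.5 and 31.5 CPM in the shRNA control. The groups did not overlap, and the log2 fold change was -0.47 ± 0.13 (edgeR adjusted p = 0.0352). The testis linker H1-6 had 1.56 and 2.18 CPM with shNBD1 against 3.45 and 4.09 CPM in the shRNA control (-0.997 ± 0.328), and did not pass (edgeR adjusted p = 0.0588). The abundant linkers moved little. H1-2 had 2707 and 2800 CPM with shNBD1 against 2812 and 2924 CPM in the shRNA control (log2 fold change -0.06 ± 0.08). H1-4, the only linker gene with both shNBD1 libraries above both controls, had 3201 and 3537 CPM against 2929 and 3063 CPM (0.17 ± 0.09, edgeR adjusted p = 0.205).

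Of the H2A genes, 1 of 12 tested rose, near the 9.18% of all genes called higher. H2AC8 (chr6:26216921-26217437) had 604 and 643 CPM with shNBD1 against 487 and 499 CPM in the shRNA control, a log2 fold change of 0.34 ± 0.09 (edgeR adjusted p = 0.0257). The groups were apart. The more abundant H2AC11 had 1130 and 1235 CPM with shNBD1 against 1072 and 1100 CPM in the shRNA control (0.12 ± 0.11), and H2AC12 had a log2 fold change of 0.08 ± 0.08.

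No H2B or H3 gene passed. Among H3 genes, the median log2 fold change was 0.27, and 5 of 6 had both shNBD1 libraries above both controls, as did 34.7% of all genes. H3C13, on chromosome 1, had 714 and 733 CPM with shNBD1 against 589 and 597 CPM in the shRNA control (0.29 ± 0.12, edgeR adjusted p = 0.129). The near-identical H3C14 and H3C15 had log2 fold changes of 0.27 ± 0.13 each. H3C12 was the exception, with 42.9 and 44.1 CPM with shNBD1 within the 41.7 to 45.6 CPM of the shRNA control. Of the H2B genes, H2BC10 had the smallest p, with 102 and 111 CPM with shNBD1 against 91.8 and 95.4 CPM in the shRNA control (0.18 ± 0.09, edgeR adjusted p = 0.161). H2BC12, the most abundant H2B gene by CPM, had 2422 and 2537 CPM against 2365 and 2470 CPM in the same order (0.04 ± 0.07).

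All 4 calls kept their direction under the alternatives tried, but each was lost when any one of the 4 libraries of this comparison was left out, and H4C2 also with DESeq2 or with scaling to total counts. Over the alternatives, the adjusted p reached 0.162 for H4C3, 0.183 for H2AC8, 0.246 for H1-5 and 0.293 for H4C2. When these 4 libraries were fitted alone, 18 members rose and 5 fell. The share of all genes called is not given for this and the next refits, so the counts are not a result about the members. Without either inhibitor control library, which bear on the shared spread, 6 rose and 4 fell; the 6 were H2AC8, H2AC13, H3C4, H3C13, H3C14 and H3C15.

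With the miRNA inhibitors, no histone gene passed the test, by edgeR or by DESeq2. Few genes did at all, with 0.0376% of tested genes called higher and 0.0827% lower by edgeR. The log2 fold change was above 0 for 37 of the 39 tested members, with a median of 0.17 against 0.01 over all genes. At an unadjusted p under 0.05 there were 12 members, all higher with the inhibitors, where 16.4% of all genes were under it in either direction. Members may share reads and all rest on the same libraries, so these counts are not of independent genes. The 37 include H1-1, whose counts are low. Both inhibitor libraries lay above both controls for 20 members and below both for 1, against 20.5% and 20.3% of all genes. The 2 members with a negative value were H2AC14 (-0.01 ± 0.10) and H2BC7 (-0.07 ± 0.06).

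The linker gene H1-3 (chr6:26234212-26234987) had the smallest p, with 598 and 527 CPM with the inhibitors against 469 and 436 CPM in the inhibitor control. Its groups did not overlap, and the log2 fold change was 0.31 ± 0.07 (edgeR adjusted p = 0.121). H1-4 had 3381 and 3439 CPM with the inhibitors against 2570 and 3059 CPM in the inhibitor control (0.28 ± 0.09), whereas H1-2 had 4028 and 3491 CPM against 3752 and 3669 CPM (0.02 ± 0.08).

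Among core histone genes, H2AC8 had 830 and 902 CPM with the inhibitors against 650 and 783 CPM in the inhibitor control, a log2 fold change of 0.27 ± 0.09 (edgeR adjusted p = 0.188). H3C4 had 528 and 618 CPM with the inhibitors against 353 and 508 CPM in the inhibitor control (0.41 ± 0.15, edgeR adjusted p = 0.222). In both genes the control libraries differed from each other by more than the inhibitor libraries did. H2BC11 had 1305 and 1347 CPM with the inhibitors against 1074 and 1240 CPM in the inhibitor control (0.20 ± 0.08, edgeR adjusted p = 0.259). For H4C11 the values were 1191 and 1246 CPM with the inhibitors against 1012 and 1179 CPM in their control (0.15 ± 0.08, edgeR adjusted p = 0.355).

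The count of 0 changed when single libraries were left out or a replicate block was added. With the block, which treats same-numbered libraries as pairs, 22 members rose. The labels state no such pairing, though same-numbered libraries deviated together in this arm (correlation 0.478). The share of all genes called is not given for any of these refits, so their counts are not a result about the members. Without inhibitor control replicate 2, 14 members rose, and without inhibitor replicate 1 the gene H3C12 rose. Without inhibitor control replicate 1 and inhibitor replicate 2 together, H1-3 and H2BC12 rose while H3C14 and H3C15 fell, in groups of 1 library each that were assumed to vary like the other groups.

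**Figure D3:**
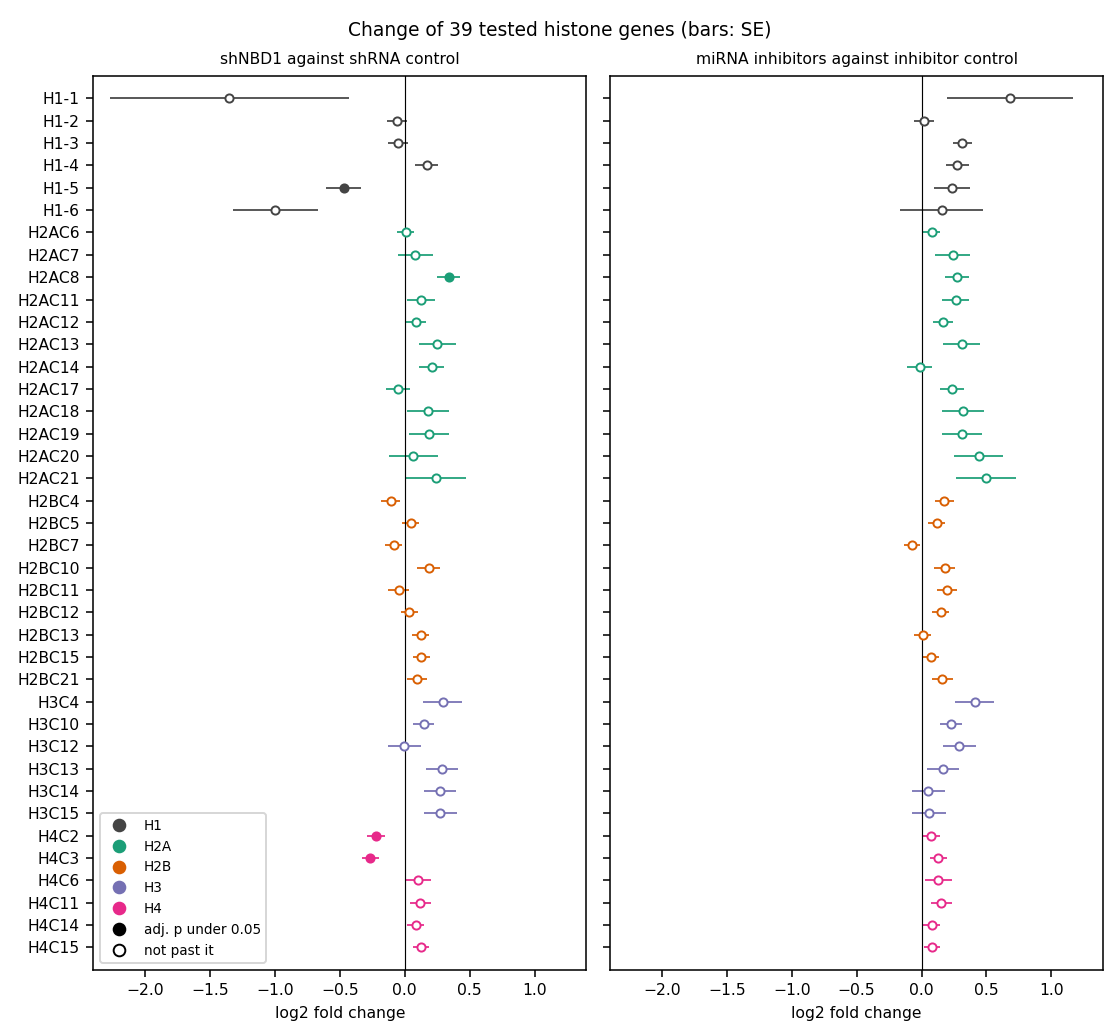
Log2 fold change (horizontal axis) of the 39 tested histone genes with shNBD1 against the shRNA control (left panel) and with miRNA inhibitors against the inhibitor control (right panel). Points are estimates of edgeR's fit, bars are SE, and filled points have an adjusted p under 0.05; H1-5, H4C2 and H4C3 are filled below 0 and H2AC8 above 0 on the left, and none is filled on the right.

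The shNBD1 effect minus the inhibitor effect was tested directly for each gene. It was lower for 1 of 39 members and higher for 0, where 3.96% of all genes were called lower and 3.48% higher. The gene was H4C3, with a difference of -0.39 ± 0.09 on the log2 scale (edgeR adjusted p = 0.0321). It had 1744 and 1672 CPM with the inhibitors against 1491 and 1631 CPM in the inhibitor control (0.13 ± 0.07), beside its fall with shNBD1. This call was lost without any one of the 4 libraries of the shRNA arm or without inhibitor control replicate 1 (adjusted p up to 0.169). Without inhibitor control replicate 2 the difference was lower for 5 members, without inhibitor replicate 2 for 4, and without inhibitor control replicate 1 it was higher for 2, H3C14 and H3C15. H1-5 (-0.71 ± 0.19, edgeR adjusted p = 0.0529), H1-3 (-0.37 ± 0.11, 0.0614) and H4C2 (-0.29 ± 0.10, 0.088) had the next smallest p-values and did not pass. For H2AC8, which rose with shNBD1, the difference was 0.07 ± 0.13 (edgeR adjusted p = 0.8).

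The 2 control groups differ in the kind of control and in whatever else separates the arms. In the shRNA control 7 members were higher and 6 lower than in the inhibitor control, shares near those over all genes, of which 13.5% and 13.6% were called. The libraries did not overlap for 14 members higher and 9 lower, against 33.7% and 33.4% of all genes. The median over tested members was 0.04. Members of 1 type moved in opposite directions.

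Among linker genes, H1-3 had 236 and 238 CPM in the shRNA control against 469 and 436 CPM in the inhibitor control. The log2 fold change was -0.93 ± 0.08 (edgeR adjusted p = 4.61e-05). H1-2 was lower too, with 2812 and 2924 CPM against 3752 and 3669 CPM in the same order (-0.37 ± 0.08). H1-5 went the other way, with 34.5 and 31.5 CPM in the shRNA control against 17.4 and 18.3 CPM in the inhibitor control (0.89 ± 0.13, edgeR adjusted p = 0.00127). The linker genes thus differed in mix, and the H1 sum was 6014 and 6261 CPM in the shRNA control against 6811 and 7186 CPM in the inhibitor control.

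Among core genes, H2BC12 had 2365 and 2470 CPM in the shRNA control against 1712 and 1734 CPM in the inhibitor control (log2 fold change 0.49 ± 0.07), without overlap. Its RefSeq span of 8566 bp is longer than that of most members. H4C3 had 2075 and 2120 CPM in the shRNA control against 1491 and 1631 CPM in the inhibitor control (0.43 ± 0.07), so its level in the shRNA control was the highest of the 4 groups. H2AC8 had 487 and 499 CPM in the shRNA control against 650 and 783 CPM in the inhibitor control (-0.54 ± 0.09), the lowest level of the 4 groups. The calls of H1-3, H1-5, H2AC8, H2BC12 and H4C3 held under all 19 alternatives. The other called members were H2AC6 (0.32), H2AC17 (0.34), H2AC20 (0.58) and H2BC4 (0.25), higher in the shRNA control, and H2AC12 (-0.36), H2AC13 (-0.51) and H2BC10 (-0.36), lower in it. Without inhibitor control replicate 1, the calls of H2AC17, H2AC20 and H2BC4 were lost, and 4 members were higher and 11 lower. Without inhibitor control replicate 2, those of H2AC13 and H2BC10 were lost, leaving 12 members higher and 4 lower. Leaving out shRNA control replicate 1 gave 3 higher and 2 lower, and leaving out shRNA control replicate 2 gave 3 in each direction. H2AC20 also lost its call without either shNBD1 library and with DESeq2. The shRNA comparison and this one share the shRNA control libraries, so their values for 1 gene are not independent.

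**Figure D4:**
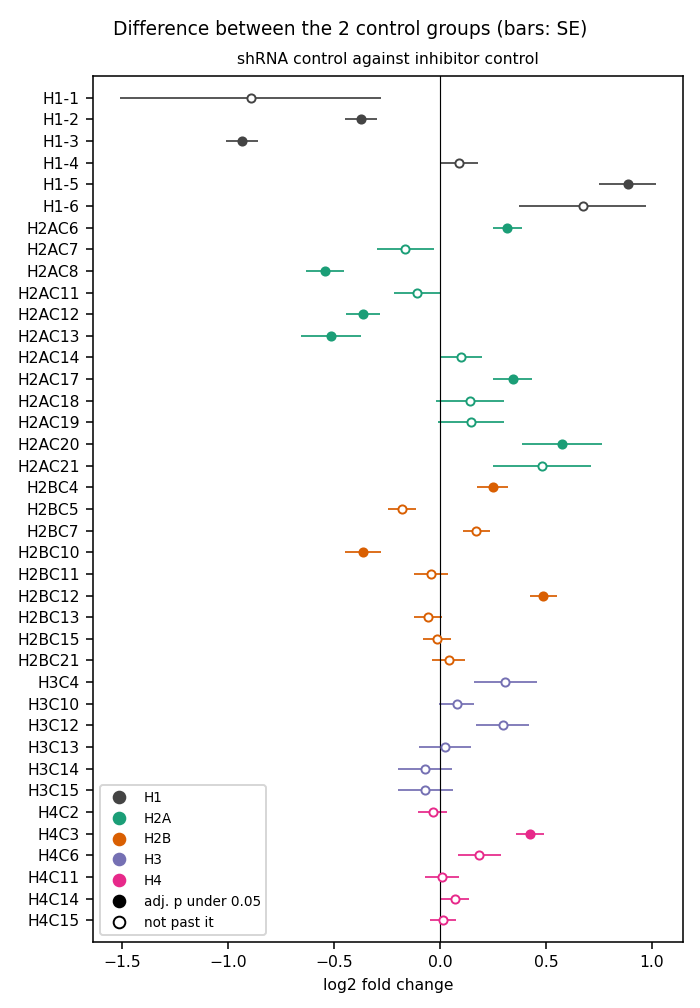
Log2 fold change of the 39 tested histone genes in the shRNA control against the inhibitor control, with SE bars and filled points for an adjusted p under 0.05. Genes of the same histone type lie on both sides of 0, such as H1-5 at 0.89 and H1-3 at -0.93.

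**Figure D5:**
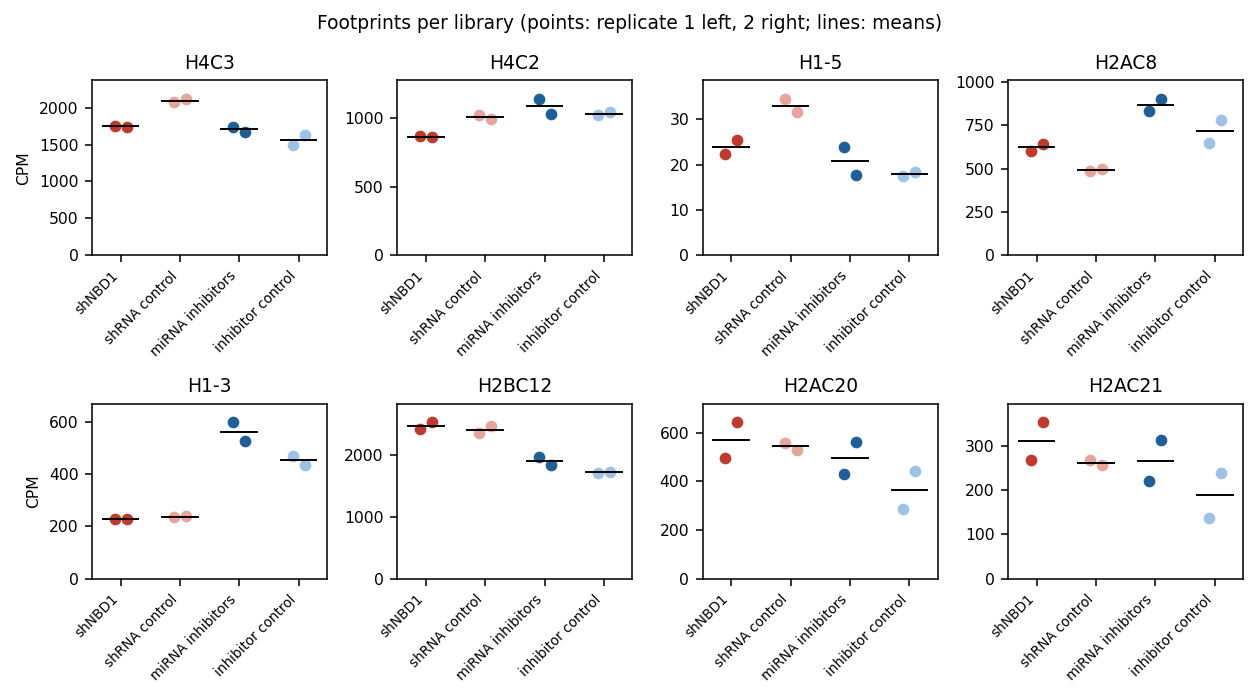
Footprint level (CPM, axes from 0) of 8 histone genes in the 2 libraries of each group, with lines for group means. H4C3 and H1-5 are highest in the shRNA control, H2AC8 is lowest there, H1-3 is lower in both shRNA-arm groups than in both inhibitor-arm groups, and H2AC20 and H2AC21 have their lowest value in inhibitor control replicate 1.

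Many H2A and H2B genes lie head to head, with starts 215 to 248 bp apart in 6 such pairs, so that they share a promoter region. In the pair H2BC4 and H2AC6, both genes were higher in the shRNA control than in the inhibitor control (0.25 and 0.32). In the pair H2BC13 and H2AC13, H2AC13 was called lower (-0.51) while H2BC13 had -0.06. In the pair H2BC21 and H2AC20, H2AC20 was called higher (0.58) while H2BC21 had 0.04. The differences within pairs were not tested.

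Genes that act on histone mRNAs were described beside the members. Of 29 genes for histone transcription and 3' end processing, 27 were tested, and with shNBD1 6 fell and none rose, where 9.15% of all genes were called lower and 9.18% higher; their median was -0.11, against 0.00 over all genes. SLBP had 65.6 and 66.5 CPM with shNBD1 against 89.6 and 80.5 CPM in the shRNA control, a log2 fold change of -0.37 ± 0.09 (edgeR adjusted p = 0.0237). CCNE1 (-0.37 ± 0.10) and CCNE2 (-0.61 ± 0.09), the cyclins E that act with CDK2 at the start of S phase, fell as well. CPSF2, a subunit of the histone pre-mRNA cleavage complex, fell by 0.47 on the log2 scale.

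Histone chaperones, which carry newly made histones to DNA, had 17 of 19 genes tested, of which 4 fell and 1 rose with shNBD1, beside the same 9.15% and 9.18% over all genes. RBBP4, a subunit of chromatin assembly factor CAF-1 and of other chromatin complexes, had 230.8 and 230.4 CPM with shNBD1 against 524 and 521 CPM in the shRNA control (-1.18 ± 0.08, edgeR adjusted p = 2.09e-05). HAT1, which acetylates newly made H4, fell by 0.48, and CHAF1B, another CAF-1 subunit, by 0.34 on the log2 scale. DAXX, a chaperone of the variant H3.3, rose by 0.45 ± 0.08.

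Of 15 S-phase genes, 5 fell and none rose with shNBD1, where 9.15% of all genes were called lower, and the median was -0.10. PCNA, the sliding clamp of DNA polymerases, had 476 and 509 CPM with shNBD1 against 684 and 689 CPM in the shRNA control (-0.48 ± 0.09, edgeR adjusted p = 0.0052). CDC6, which licenses replication origins, fell by 0.37, RRM1, the large subunit of ribonucleotide reductase, by 0.36, and cyclin A2 (CCNA2) by 0.39 on the log2 scale. The summed S-phase level was 6082 to 6084 CPM with shNBD1 against 6765 to 6817 CPM in the shRNA control.

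With the inhibitors, no gene of these 3 lists passed. Nor did any replication-independent histone variant gene reported here, a class also expressed outside S phase. Of all genes, only 0.0376% were called higher and 0.0827% lower with the inhibitors. The genes of smallest p within the variant, processing, chaperone and S-phase lists were H3-5 (0.29 ± 0.07), CDK2 (-0.29 ± 0.09), CHAF1B (-0.22 ± 0.08) and TYMS (-0.30 ± 0.10) in that order, with edgeR adjusted p-values between 0.121 and 0.201. The difference between the treatment effects was called for CCNE2 (-0.79) and CPSF2 (-0.48) of the processing genes, for RBBP4 (-0.99), HAT1 (-0.52), ASF1A (-0.42) and DAXX (0.66) of the chaperones, and for CCNA2 (-0.61), CDC6 (-0.45) and RRM2 (-0.36) of the S-phase genes. It was also called for the variant gene H3-3B (-0.46). For this difference, 3.48% of all genes were called higher and 3.96% lower.

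The control groups also differed in genes of these lists, as they did in 13.5% (higher in the shRNA control) and 13.6% (lower) of all genes. In the shRNA control 7 processing genes were higher and 7 lower than in the inhibitor control, with CCNE2 at 0.70, SNRPD3 at 0.39, SNRPE at -0.54 and the cap-binding protein NCBP1 at -0.48. Of the chaperones 4 were higher and 2 lower, with HAT1 at 0.66, ASF1B at 0.33, DAXX at -0.32 and SSRP1 at -0.30. Of the S-phase genes 4 were higher and 2 lower, with RRM2 at 0.77, CCNA2 at 0.57, GINS2 at -0.36 and the flap endonuclease FEN1 at -0.66. Of the variants reported here, H2AX (0.64) and H2AZ1 (0.39) were higher, and MACROH2A1 (-0.22), H2AZ2 (-0.32) and H2AJ (-0.34) were lower.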

How the data were processed

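Ribosome footprints were measured in 8 libraries of 293T cells. The authors deposited unnormalized read counts per feature, as whole numbers; cutadapt, Bowtie and GRCh38 are named in the submitters' processing notes. A feature not listed was taken as 0. The 18037 features were summed per gene symbol. Genes passing filterByExpr (minimum count 10, minimum total 15) were fitted in edgeR 4.0.16 (R 4.3.3) with TMM scaling and a quasi-likelihood model of the 4 groups, with 4 residual degrees of freedom. The Benjamini-Hochberg adjustment ran over 13306 genes and calls needed an adjusted p under 0.05; CPM values use TMM-scaled library sizes. The common biological coefficient of variation was 0.0753. The steps were tested on simulated counts. Alternatives are given in the closing section.

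Named members were all that passed in any comparison, the 2 of highest mean CPM in each type and the smallest p in each type for each treatment. Other members, among them H1-6, H2AC14, H2BC7, H3C12 and the head-to-head and copy pairs, were named after their values had been seen. In the other lists, up to 4 called genes of smallest p were named, or the gene of smallest p where none was called. The variants H2AZ2 and H2AJ were named in addition, after their values had been seen. One gene of the variant list is not reported here. The members and lists were chosen with earlier results of these data known. Replicate numbers were checked for pairing, which the labels do not state.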

Additional observations from a re-analysis of the deposited data

Results flagged for a closer look

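H4C3 was flagged because the effects of shNBD1 and of the inhibitors on it differed when the difference itself was tested. It was the 1 of 39 members called lower, where 3.96% of all genes were called lower. The difference was -0.39 ± 0.09 on the log2 scale (edgeR adjusted p = 0.0321). Both shNBD1 libraries were below both shRNA controls, and both inhibitor libraries were above both inhibitor controls. Of all genes, 34.3% did the former and 20.5% the latter. Over the alternatives the difference ranged from -0.46 to -0.32 and the adjusted p from 4.62e-05 to 0.169.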

How the results depend on the processing

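Under 17 planned and 2 added alternatives, the latter chosen after seeing the data, no called gene changed direction, but some sums near 0 did; the alternatives were scalings, filters, DESeq2, only the compared libraries, features as deposited, abundant features left out, near-identical copies summed, libraries left out and a replicate block. Of 337 values of called genes, 290 stayed past the threshold and 47 did not; of 270 sums, 1 moved by more than the replicate spread (H2A with the inhibitors, -0.01 without both inhibitor control replicate 1 and inhibitor replicate 2). Sums that changed sign within that spread when 1 library was left out were H2B with shNBD1 (-0.012 without shNBD1 replicate 2), H3 with the inhibitors (-0.045 without inhibitor control replicate 1), the all-member, H2A and H3 differences between treatments (to 0.017, 0.071 and -0.13) and the all-member, H2A and H3 ratios between controls (to -0.071, -0.15 and -0.17). Counts of members called under the alternatives are given, here and above, without the share of all genes called in the same fit. With only the compared libraries, shNBD1 gave 18 members that rose and 5 that fell. With no filter on low counts, 2 differences between treatments were lower. Without both inhibitor control replicate 1 and inhibitor replicate 2, the inhibitors gave 2 that rose and 2 that fell, the difference 8 higher and 7 lower, and 13 members were lower in the shRNA than in the inhibitor control. Leaving out 1 library gave, with shNBD1, 0 to 6 that rose and 0 to 4 that fell; with the inhibitors, 0 to 14 that rose and 0 that fell; for the difference, 0 to 2 higher and 0 to 5 lower; and between controls, 3 to 12 higher and 2 to 11 lower. Same-numbered libraries deviated together in the inhibitor arm (correlation 0.478) but not in the shRNA arm (0.024), and the labels pair none. With a replicate block, 17 members rose with shNBD1 and 22 with the inhibitors, 1 difference was higher and 11 were lower, and 15 members were higher in the shRNA control. The cause of these shifts was not tested. Summing members that encode the same protein was not run, since no protein table was used here. With 2 libraries a group, small changes are beyond the precision of these data, and counts of H1-1, H2AC1 and H2BC1 are too low for any statement.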
